A study of Mus musculus with 12 samples.

Results

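The FOS and JUN families supply the subunits of AP-1, and their 7 genes are described here across mouse 3T3-L1 cells before and after a beige adipocyte differentiation protocol. All 7 were found by symbol among the 18255 genes listed in at least 1 of 12 RNA-seq libraries, and all 7 passed the filter on low counts. There were 4 FOS genes (Fos, Fosb, Fosl1 and Fosl2) and 3 JUN genes (Jun, Junb and Jund). The choice of genes drew on earlier results for these libraries, in particular on undifferentiated LIGHT cells against undifferentiated control cells. That comparison is therefore given as a description with no test, and so are the changes of Fos and Fosb on differentiation.

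3T3-L1 is a line of mouse embryo fibroblasts that can be turned into fat cells by hormones. One line (LIGHT) overexpressed LIGHT, the tumour necrosis factor family ligand encoded by Tnfsf14, and the control line (NC) did not. There were 4 groups of 3 libraries: differentiated LIGHT, differentiated control, undifferentiated LIGHT and undifferentiated control. Both differentiated groups were induced for 48 h with the glucocorticoid dexamethasone (2 µg/ml), the phosphodiesterase inhibitor IBMX (0.5 mM), the PPARγ agonist rosiglitazone (1 µM), indomethacin, insulin (5 µg/ml) and triiodothyronine (1 nM). Maintenance medium with rosiglitazone, triiodothyronine and insulin followed. The labels give neither the harvest day nor how the LIGHT line was made, whether each line was 1 clone, or whether replicates were separate cultures. The p-values therefore cover the spread among these libraries, which may be technical.

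AP-1 is a dimeric transcription factor of the basic leucine zipper kind. JUN proteins pair with each other or with FOS proteins, whereas FOS proteins bind DNA mainly as partners of JUN proteins. Fos and Fosb encode subunits with strong activating domains and are classical immediate early genes, switched on within minutes by growth factors, cAMP and stress. Fosl1 and Fosl2 encode Fra-1 and Fra-2, which lack such a domain and are induced later, while Junb and Jund encode JUN proteins that are generally weaker activators than c-Jun. In mice, excess Fra-1 or a short FosB isoform favours bone over fat, which is why this family is of interest in fat precursor cells.

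Before any result, 2 libraries went against their labels. Tnfsf14 had expected counts of 0, 148 and 122 in differentiated LIGHT replicates 1, 2 and 3, against 113, 0 and 0 in differentiated control replicates 1, 2 and 3. Undifferentiated LIGHT libraries had 38, 53 and 58, against 0, 1 and 0 in undifferentiated control libraries. The library labelled differentiated LIGHT 1 thus had no count of the overexpressed transcript, which allows up to 0.176 CPM, and the library labelled differentiated control 1 carried it. Both stayed in the groups of their labels, and the counts, shares and member results on differentiated cells are also given without them.

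Depth was 16334079 to 19686675 expected counts per library, with 14812 to 15017 genes listed, so that 3 counts corresponded to a CPM (library-scaled count) of 0.152 to 0.184. The summed level of 8 adipocyte markers was 13200 to 18700 CPM in differentiated LIGHT cells, 13500 to 18900 CPM in differentiated control cells, 202 to 236 CPM in undifferentiated LIGHT cells and 210 to 242 CPM in undifferentiated control cells. The thermogenic marker Ucp1 had 0, 2 and 0 counts in differentiated LIGHT libraries and 1, 0 and 0 in differentiated control libraries. It had 0 in all 6 undifferentiated libraries, so this defining beige transcript was at or near 0. The sum of 5 thermogenic markers, Ucp1 included, was nonetheless higher after differentiation. It was 7.79 to 12.0 CPM in differentiated LIGHT cells and 6.21 to 11.6 CPM in differentiated control cells. In undifferentiated LIGHT and control cells it was 0.785 to 1.42 and 1.62 to 2.39 CPM. The 1 marker of these tested, Ppargc1a, rose by 3.09 ± 0.31 in the LIGHT line and 2.09 ± 0.30 in the control line (log2, SE, edgeR). Summed leukocyte markers (5 of 6 found) were between 1.94 and 2.8 CPM in the groups other than undifferentiated control, where they were 3.93 to 4.6 CPM. Endothelial and epithelial markers (7 of 8 found) summed to 2.98 to 9.47 CPM in differentiated LIGHT and 1.93 to 11.6 CPM in differentiated control libraries. In undifferentiated libraries they summed to at most 1.24 CPM. Without the 2 libraries, 4 of these genes were tested for LIGHT over control after differentiation. The log2 fold changes were -1.95 ± 0.52 for Krt18, -1.91 ± 0.41 for Krt8, -0.85 ± 0.74 for Pecam1 and 0.74 ± 1.09 for Tek (SE, edgeR). Muscle markers (4 of 5 found) summed to 16.9 to 29.5 CPM in differentiated LIGHT and 18.2 to 29.5 CPM in differentiated control cells, against 7.03 to 8.21 and 9.4 to 10.8 CPM in undifferentiated LIGHT and control cells. Fibroblast markers (8 of 8 found) summed to 18200 to 22400 CPM in differentiated LIGHT, 17600 to 24900 CPM in differentiated control, 22800 to 24200 CPM in undifferentiated LIGHT and 14900 to 16600 CPM in undifferentiated control cells, so that the undifferentiated lines did not overlap. The part of these markers in the results on AP-1 was not tested, and in bulk RNA a smaller number of cells of a type and less RNA per cell cannot be told apart.

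The proximal promoters of Fos, Fosb, Jun and Junb are shown because these are the members, besides Jund (not shown), whose levels were higher in every undifferentiated LIGHT library than in any undifferentiated control library. Each is the 250 bases before the transcription start in RefSeq (GRCm38.p6), 5′ to 3′ on the strand of the gene, with motif matches in capitals.
Fos, chr12:85473640-85473889, plus strand: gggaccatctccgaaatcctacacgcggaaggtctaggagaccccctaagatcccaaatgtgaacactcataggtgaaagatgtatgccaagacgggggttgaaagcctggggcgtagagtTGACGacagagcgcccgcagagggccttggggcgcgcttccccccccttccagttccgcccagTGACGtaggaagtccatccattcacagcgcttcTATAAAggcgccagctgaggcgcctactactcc
Fosb, chr7:19310046-19310295, minus strand: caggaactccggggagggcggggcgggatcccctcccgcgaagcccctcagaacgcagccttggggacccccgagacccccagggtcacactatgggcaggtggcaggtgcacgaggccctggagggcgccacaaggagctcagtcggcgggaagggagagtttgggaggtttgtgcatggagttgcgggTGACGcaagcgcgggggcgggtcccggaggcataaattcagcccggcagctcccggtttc
Jun, chr4:95052223-95052472, minus strand: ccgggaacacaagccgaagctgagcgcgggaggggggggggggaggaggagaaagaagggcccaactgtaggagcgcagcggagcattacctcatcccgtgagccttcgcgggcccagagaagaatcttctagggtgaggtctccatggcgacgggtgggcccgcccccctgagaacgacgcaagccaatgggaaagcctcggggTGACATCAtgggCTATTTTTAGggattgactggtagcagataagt
Junb, chr8:84978749-84978998, minus strand: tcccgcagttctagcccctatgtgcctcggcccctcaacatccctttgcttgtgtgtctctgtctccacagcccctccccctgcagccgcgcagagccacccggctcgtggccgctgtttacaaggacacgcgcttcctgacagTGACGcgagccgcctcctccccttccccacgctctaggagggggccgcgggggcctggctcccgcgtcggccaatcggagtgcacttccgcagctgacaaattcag

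Motifs were searched on both strands in these 4 windows and in those of Fosl2 and Jund. TGACG, the core of the cAMP response element through which CREB proteins bind, was found in the windows of Fos, Fosb and Junb, and in 17.8% of all 32851 promoter windows of the same length. Counted back from the start at base -1, it lay at bases -129 to -125 and -66 to -62 of Fos, at -60 to -56 of Fosb and at -106 to -102 of Junb. The Jun window held TGACATCA, the AP-1-like site known from the Jun gene, at -45 to -38 (2.93% of all windows), and near it a MEF2 site at -33 to -24 (0.508% of all windows). TATAAA was found at -33 to -28 of Fos and in 12.4% of all windows. None of the 6 windows held the full AP-1 site TGACTCA (4.46% of all windows), the full cAMP response element TGACGTCA (1.55%), which contains TGACG, or a CArG box (1.47%), the binding site of serum response factor. A match of letters is a description of the window and does not show binding. Bases further upstream than 250 were not searched, so the lack of a match does not show that a promoter lacks the site.

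Levels are given in FPKM, which is per length and so can be compared between genes within a library. The level of Fosl1 is uncertain, because its reads may have been divided with the overlapping gene Ccdc85b, whose values are given with it. In differentiated LIGHT cells, without the library that lacked Tnfsf14, the order of mean levels was Junb (140 ± 4.48 FPKM, SD, n = 2), Jund (93.3 ± 3.13), Fosl1 (60.8 ± 5.71), Jun (33.8 ± 3.18), Fos (11.0 ± 0.325), Fosl2 (8.52 ± 0.269) and Fosb (0.420 ± 0.0707), with all neighbours apart. In differentiated control cells, without the library that carried Tnfsf14, it was Fosl1 (141 ± 0.537 FPKM, SD, n = 2), Jund (96.3 ± 1.82), Junb (73.3 ± 1.97), Jun (25.5 ± 0.728), Fosl2 (11.7 ± 0.537), Fos (10.5 ± 1.55) and Fosb (0.465 ± 0.0354), where the ranges of Fosl2 and Fos overlapped. With all 3 libraries, the ranges of Junb, Jund and Fosl1 overlapped from neighbour to neighbour in both differentiated groups.

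In undifferentiated LIGHT cells the order was Junb (176 ± 4.11 FPKM, SD, n = 3), Jund (119 ± 3.77), Jun (58.8 ± 3.26), Fosl2 (15.4 ± 0.424), Fos (14.0 ± 3.40), Fosl1 (8.64 ± 0.682) and Fosb (4.11 ± 1.65). The ranges of Fosl2 and Fos overlapped, and all other neighbours in this order were apart. In undifferentiated control cells the order was Junb (68.1 ± 5.69 FPKM, SD, n = 3), Jund (67.5 ± 7.85), Jun (41.4 ± 1.02), Fosl1 (39.1 ± 1.34), Fosl2 (16.0 ± 0.618), Fos (1.21 ± 0.0709) and Fosb (0.373 ± 0.0379), where the ranges of Junb and Jund overlapped. Fosl1 thus stood below Fosl2 and Fos in undifferentiated LIGHT cells and above both in undifferentiated control cells.

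**Figure D1:**
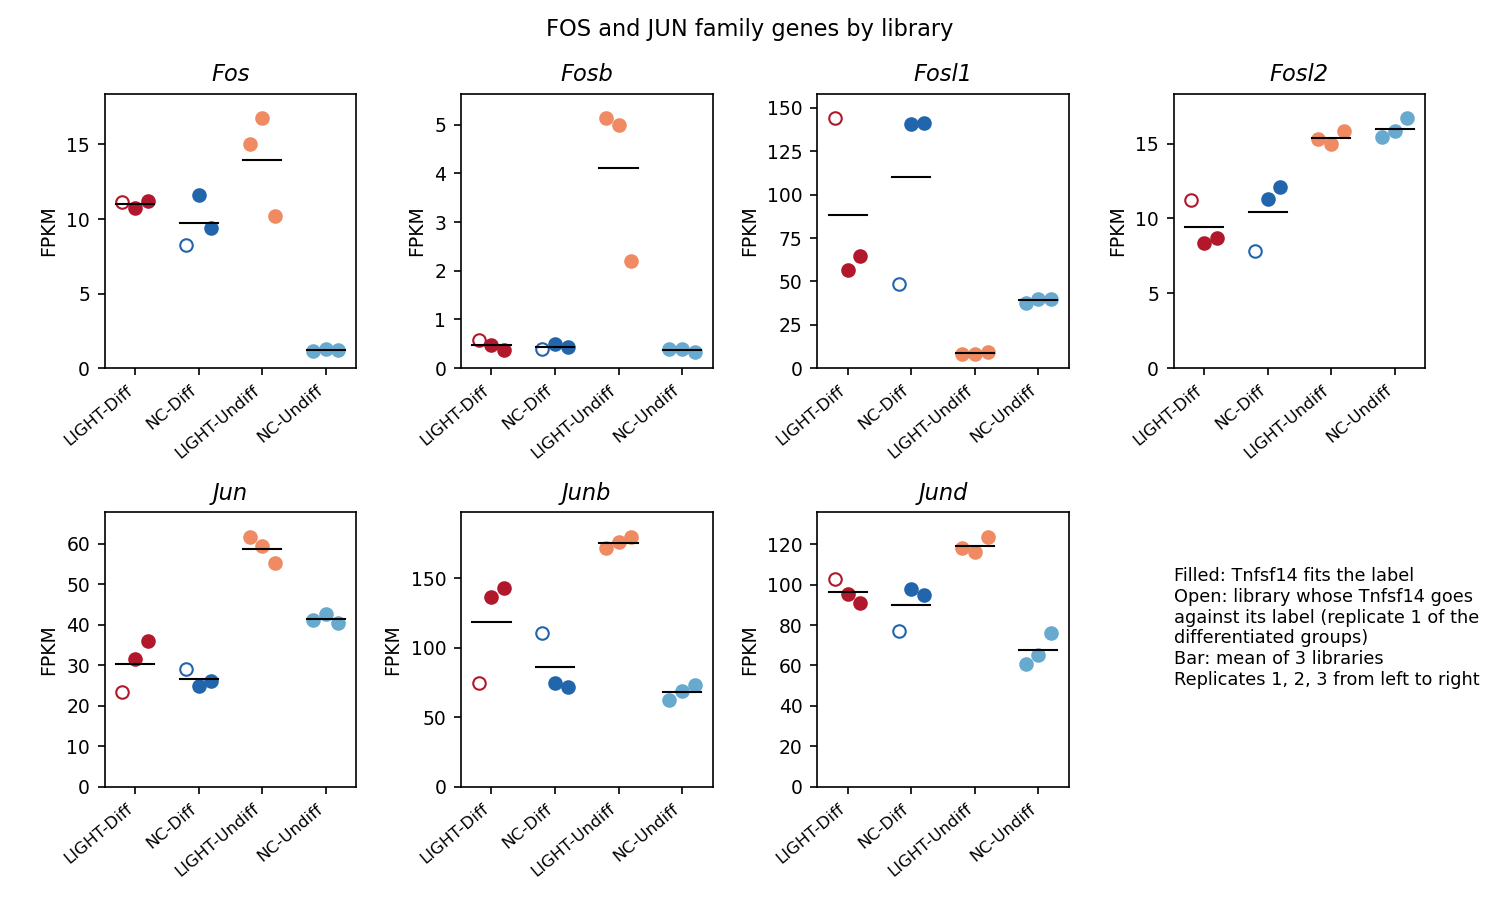
Level of each of the 7 genes (y axis, FPKM, from 0) in each library of the 4 groups (x axis); points are libraries, bars are means of 3, and open points are the 2 differentiated libraries whose Tnfsf14 goes against the label. Fosl1 lies at 48.68 to 143.95 FPKM in differentiated libraries, above all undifferentiated ones, and Fosb exceeds 1 FPKM in the 3 undifferentiated LIGHT libraries alone.

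After differentiation the 4 FOS genes together made up 30.6 ± 12.8% of the summed FPKM of the family in LIGHT libraries and 38.1 ± 13.0% in control libraries as labelled (SD, n = 3 each). The wide spread came with the 2 libraries that went against their labels. The FOS share was 45.4, 22.5 and 24.0% in differentiated LIGHT 1, 2 and 3, against 23.1, 45.4 and 45.8% in differentiated control 1, 2 and 3. Without the 2 libraries the means were 23.2 ± 1.06% in LIGHT cells and 45.6 ± 0.283% in control cells (SD, n = 2 each), and the groups did not overlap.

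Most of this difference lay in Fosl1. Without the 2 libraries it supplied 17.5 ± 1.13% of the summed FPKM in differentiated LIGHT cells and 39.3 ± 0.566% in differentiated control cells, where it was the most abundant of the 7. Junb was the most abundant in differentiated LIGHT cells on the same libraries, with 40.2 ± 0.0707%, against 20.4 ± 0.354% in differentiated control cells. Jund held 26.9 ± 1.77% and 26.9 ± 0.212%. As labelled, with all 3 libraries, Fosl1 supplied 24.7 ± 12.6% in LIGHT and 32.0 ± 12.7% in control cells, and Junb 33.6 ± 11.5% and 26.7 ± 10.9%, with overlapping ranges. All shares that include Fosl1, and its rank, carry the uncertainty of its level beside Ccdc85b, which the SDs do not cover. Shares without Fosl1 were not computed.

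Before differentiation the FOS share was 10.6 ± 1.00% in LIGHT cells, against 24.3 ± 0.777% in control cells (SD, n = 3 each). The libraries were at 11.0, 11.4 and 9.5% in undifferentiated LIGHT cells and at 24.9, 24.5 and 23.4% in undifferentiated control cells, with no overlap. The summed level itself was higher in the LIGHT line, at 396 ± 1.05 FPKM against 234 ± 14.7 FPKM. Fosl1 supplied 2.18 ± 0.167% of the sum in undifferentiated LIGHT cells and 16.8 ± 0.586% in undifferentiated control cells. Junb supplied 44.3 ± 0.950% and 29.1 ± 0.643% in the same groups. The share of Jund differed little in mean, at 30.1 ± 0.971% in undifferentiated LIGHT cells and 28.8 ± 1.65% in undifferentiated control cells, and its ranges overlapped.

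Within the FOS genes the shares of the undifferentiated lines did not overlap for any member. These shares are parts of the same sum, so a change in any member moves the others, and they are not separate differences. Fos made up 32.9 ± 5.24% of FOS FPKM in undifferentiated LIGHT cells against 2.14 ± 0.0945% in undifferentiated control cells. Fosb made up 9.56 ± 3.22% against 0.660 ± 0.0796%, and Fosl2 36.8 ± 4.67% against 28.2 ± 0.569%. The level of Fosl2 itself was 15.4 FPKM in undifferentiated LIGHT and 16.0 FPKM in undifferentiated control cells, with overlapping ranges. Fosl1 made up 20.8 ± 3.67% in undifferentiated LIGHT cells, below both Fos and Fosl2, against 68.9 ± 0.416% in undifferentiated control cells. After differentiation Fosl1 was the main FOS transcript in both lines, with 75.3 ± 1.27% of FOS FPKM in LIGHT cells and 86.2 ± 0.636% in control cells (SD, n = 2 each, without the 2 libraries), or 79.0 ± 6.41% and 82.3 ± 6.63% as labelled (n = 3 each).

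**Figure D2:**
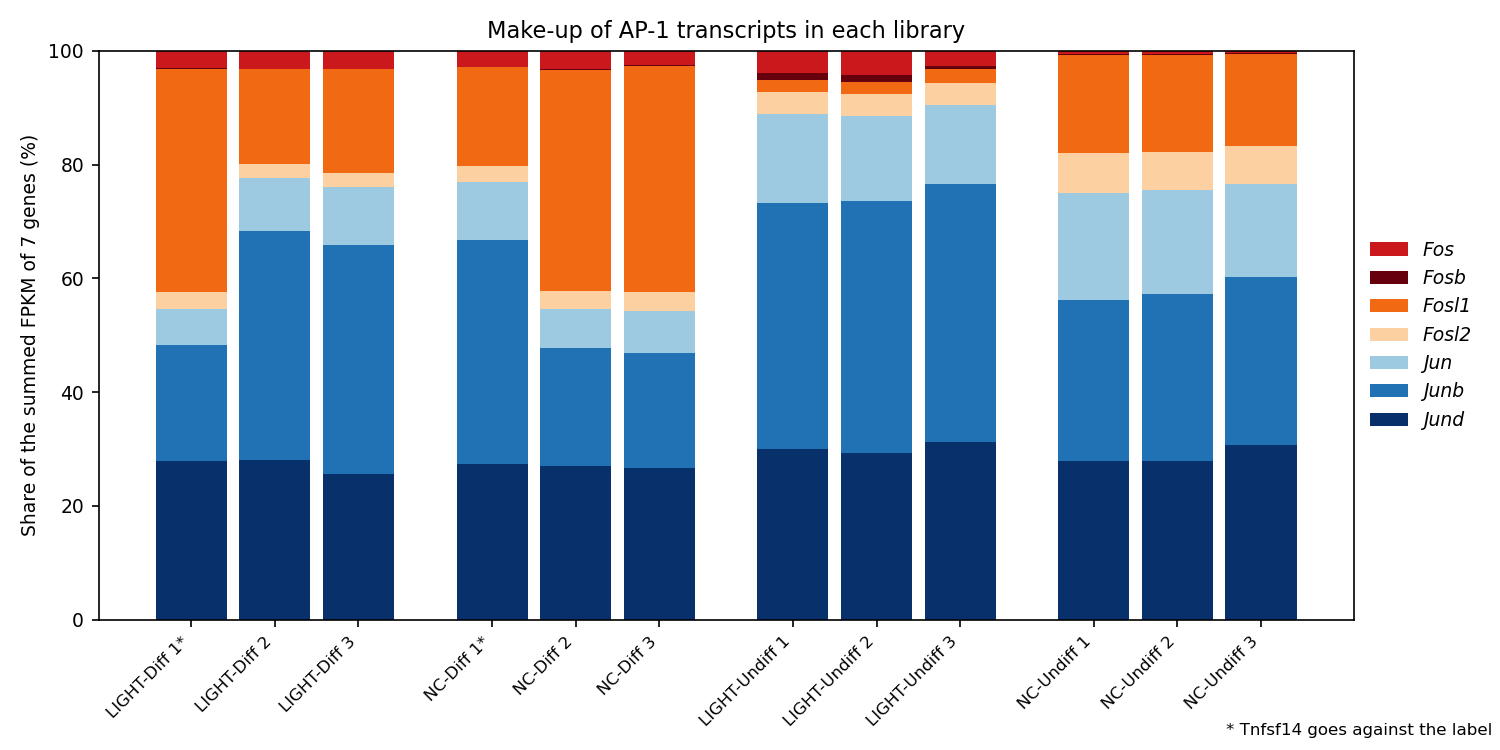
Share of each gene in the summed FPKM of the 7 genes (y axis, %) in each of the 12 libraries (x axis, replicates 1 to 3 of each group); asterisks mark the 2 libraries whose Tnfsf14 goes against the label. The FOS genes (reds and oranges, upper part) take either 22.5 to 24.0% or 45.4 to 45.8% in differentiated libraries, 9.5 to 11.4% in undifferentiated LIGHT libraries and 23.4 to 24.9% in undifferentiated control libraries.

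Among the immediate early subunits, Fos was at 11.11, 10.77 and 11.23 FPKM in differentiated LIGHT libraries and 8.24, 11.59 and 9.40 FPKM in differentiated control libraries. It was at 15.00, 16.74 and 10.17 FPKM in undifferentiated LIGHT libraries, against 1.15, 1.29 and 1.20 FPKM in undifferentiated control libraries. The undifferentiated control group therefore stood below the other 3 groups, whose ranges overlapped one another. The log2 fold change of differentiated over undifferentiated cells was -0.28 ± 0.17 in the LIGHT line and 3.12 ± 0.21 in the control line (SE, edgeR), and -0.30 ± 0.15 and 3.26 ± 0.20 without the 2 libraries. That of LIGHT over control before differentiation was 3.55 ± 0.21.

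Fosb, whose product is another strong activator, was at 0.57, 0.47 and 0.37 FPKM in differentiated LIGHT libraries, against 0.39, 0.49 and 0.44 FPKM in differentiated control libraries. It was at 5.13, 4.99 and 2.21 FPKM in undifferentiated LIGHT libraries, against 0.39, 0.40 and 0.33 FPKM in undifferentiated control libraries. Undifferentiated LIGHT was thus the high group, and the other 3 groups overlapped. The length the files use for Fosb varied between 3783 and 4805 bases from library to library, so its counts are given too. They were 35, 34 and 22 in differentiated LIGHT libraries, 23, 33 and 32 in differentiated control libraries, 384, 433 and 172 in undifferentiated LIGHT libraries and 26, 28 and 24 in undifferentiated control libraries. The log2 fold change of differentiated over undifferentiated cells was -3.35 ± 0.33 in the LIGHT line and 0.20 ± 0.37 in the control line, and -3.51 ± 0.34 and 0.34 ± 0.42 without the 2 libraries. That of LIGHT over control before differentiation was 3.60 ± 0.33.

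Fos and Fosb thus shared high levels in undifferentiated LIGHT cells, but not in differentiated control cells, where Fos was high and Fosb was not. The third replicate of undifferentiated LIGHT was the lowest of its group for both genes. Between the undifferentiated lines, where these genes were higher in LIGHT cells, the summed fibroblast markers were also higher and the summed leukocyte markers lower in LIGHT cells, without overlap.

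Fosl1, which encodes Fra-1, was at 143.95, 56.81 and 64.88 FPKM in differentiated LIGHT libraries, against 48.68, 140.50 and 141.26 FPKM in differentiated control libraries. The highest value of the differentiated LIGHT group came from the library that lacked Tnfsf14, and the lowest of the differentiated control group from the library that carried it. Before differentiation it was lower in the LIGHT line, at 8.08, 8.44 and 9.40 FPKM in undifferentiated LIGHT libraries, against 37.52, 39.87 and 39.81 FPKM in undifferentiated control libraries, a log2 fold change of -2.15 ± 0.43.

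Fosl1 overlaps Ccdc85b in the RefSeq annotation, and its expected count was not whole in 12 of 12 libraries. Whether counting used strand is not stated in the labels. Ccdc85b was at 53.95, 43.49 and 40.79 FPKM in differentiated LIGHT libraries, against 36.12, 52.71 and 51.98 FPKM in differentiated control libraries. Its values were 22.34, 23.62 and 21.87 FPKM in undifferentiated LIGHT libraries, against 32.18, 33.10 and 35.19 FPKM in undifferentiated control libraries, so that it moved in the direction of Fosl1 over a narrower range. The expected counts of both genes together were 7651, 5165 and 4514 in differentiated LIGHT libraries and 3746, 7614 and 8684 in differentiated control libraries. They were 1784, 2113 and 1924 in undifferentiated LIGHT libraries and 3227, 3441 and 3515.49 in undifferentiated control libraries. The sum was thus whole in every library but undifferentiated control 3, although neither gene's own count was whole in any library.

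Fosl2, which encodes Fra-2, was lower after differentiation in every library. It was at 11.24, 8.33 and 8.71 FPKM in differentiated LIGHT libraries, against 7.84, 11.31 and 12.07 FPKM in differentiated control libraries. The undifferentiated groups were close and overlapped, at 15.32, 15.00 and 15.84 FPKM in LIGHT and 15.47, 15.86 and 16.68 FPKM in control libraries, with a log2 fold change of LIGHT over control of -0.04 ± 0.16.

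Among the JUN genes, Jun, which encodes c-Jun, was at 23.39, 31.55 and 36.05 FPKM in differentiated LIGHT libraries, against 28.95, 24.98 and 26.01 FPKM in differentiated control libraries. All 6 lay below every undifferentiated library. Undifferentiated LIGHT libraries held 61.67, 59.39 and 55.24 FPKM, against 41.19, 42.54 and 40.54 FPKM in undifferentiated control libraries, a log2 fold change of LIGHT over control of 0.52 ± 0.11.

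Junb was at 74.68, 136.76 and 143.09 FPKM in differentiated LIGHT libraries, against 110.61, 74.71 and 71.92 FPKM in differentiated control libraries. Here too the first replicate of each differentiated group was the one apart from the others. Undifferentiated LIGHT libraries held 171.39, 175.84 and 179.60 FPKM, against 62.03, 68.97 and 73.31 FPKM in undifferentiated control libraries, a log2 fold change of 1.39 ± 0.20.

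Jund was at 102.68, 95.48 and 91.05 FPKM in differentiated LIGHT libraries, against 77.08, 97.63 and 95.06 FPKM in differentiated control libraries, and these ranges overlapped. It was at 118.16, 116.41 and 123.64 FPKM in undifferentiated LIGHT libraries, against 60.88, 65.39 and 76.15 FPKM in undifferentiated control libraries, a log2 fold change of 0.84 ± 0.11. All 3 JUN genes were thus higher in every undifferentiated LIGHT library than in any undifferentiated control library. Differences between these groups were common, since edgeR had 1604 of 12993 genes higher and 1842 lower at an adjusted p under 0.05. How many of all genes separated library by library in this way was not counted.

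The changes on differentiation were tested for the 5 members other than Fos and Fosb. In both lines the undifferentiated libraries also enter the comparison from which the genes were chosen. The p-values of these members may therefore not be independent of that choice. In the LIGHT line, Fosl1 rose on differentiation by 3.43 ± 0.44 on the log2 scale (adjusted p = 2.59e-05, edgeR's quasi-likelihood test), a 10.8-fold higher level. Jun (-0.89 ± 0.11, adjusted p = 1.9e-05), Fosl2 (-0.63 ± 0.16, adjusted p = 0.0043) and Junb (-0.52 ± 0.20, adjusted p = 0.0371) fell, and Jund had -0.24 ± 0.11 (adjusted p = 0.0821). That made 4 of 5 called, in a comparison where 58.6% of all 12993 genes tested were called, 29.5% higher and 29.1% lower. Leaving out differentiated LIGHT 1 ended the call of Junb (adjusted p = 0.0917), and so did leaving out any 1 of the undifferentiated LIGHT libraries (adjusted p between 0.0717 and 0.0818) or undifferentiated control 2 (adjusted p = 0.0501). All 5 were called without the 2 libraries, as were 64.1% of all genes (32.3% higher and 31.9% lower). On those libraries the values were 2.86 ± 0.08 for Fosl1 (adjusted p = 6.02e-17), -0.80 ± 0.06 for Fosl2 (adjusted p = 1.58e-09), -0.75 ± 0.07 for Jun (adjusted p = 6e-09), -0.29 ± 0.06 for Junb (adjusted p = 0.000317) and -0.31 ± 0.07 for Jund (adjusted p = 0.000752).

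In the control line, the same 5 members were tested, with the same limit on their p-values. Fosl1 (log2 fold change 1.63 ± 0.40, adjusted p = 0.00314) and Jund (0.53 ± 0.11, adjusted p = 0.0011) rose, while Jun (-0.52 ± 0.11, adjusted p = 0.00125) and Fosl2 (-0.50 ± 0.16, adjusted p = 0.0149) fell, in edgeR's quasi-likelihood test. Junb had 0.45 ± 0.20 (adjusted p = 0.0643). Here too 4 of 5 were called, where 63.9% of all genes were called, 32.2% higher and 31.7% lower. All 5 were called without the 2 libraries, as were 70.7% of all genes (35.8% higher and 34.9% lower), and Fosl1 rose by 2.01 ± 0.06 (adjusted p = 5.63e-16). On those libraries Junb had 0.27 ± 0.06 (adjusted p = 0.00076), Jund 0.67 ± 0.07 (adjusted p = 4.76e-08), Jun -0.54 ± 0.07 (adjusted p = 6.76e-07) and Fosl2 -0.29 ± 0.06 (adjusted p = 0.000333).

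Fosl1 thus rose and Jun and Fosl2 fell on differentiation in both lines. Jund rose in the control line and had a negative fold change in the LIGHT line, which was called without the 2 libraries. The difference between the 2 lines' changes was not tested, since it contains the comparison the genes were chosen from. As a description, the change in LIGHT cells minus that in control cells was -3.40 for Fos, -3.56 for Fosb, 1.80 for Fosl1, -0.13 for Fosl2, -0.37 for Jun, -0.97 for Junb and -0.77 for Jund on the log2 scale. Without the 2 libraries these were -3.57, -3.85, 0.84, -0.51, -0.21, -0.55 and -0.98 in the same order of genes.

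LIGHT against control after differentiation gave no call as labelled. None of the 7 members was called, and 0% of the 12993 genes tested were called. Over all genes, 523 had an unadjusted p under 0.05 in edgeR, and DESeq2 called 1 gene. The member with the smallest p was Junb, with 0.42 ± 0.20 (unadjusted p = 0.0515, adjusted p = 0.913). Fosl1 had -0.35 ± 0.38 (adjusted p = 0.913), and the other 5 lay between -0.17 and 0.15.

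Without the 2 libraries, 4 of 7 members were called, where 31% of 13150 genes were called, 14.6% higher and 16.4% lower. Fosl1 (-1.30 ± 0.07, adjusted p = 1.22e-10) and Fosl2 (-0.54 ± 0.07, adjusted p = 1.09e-05) fell in LIGHT cells relative to control cells. Junb (0.85 ± 0.07, adjusted p = 1.8e-08) and Jun (0.32 ± 0.07, adjusted p = 0.00243) rose. Jund had -0.13 ± 0.08 (adjusted p = 0.224), Fos -0.01 ± 0.17 (adjusted p = 0.975) and Fosb -0.24 ± 0.46 (adjusted p = 0.732). Leaving out either library alone called no member, so these calls rest on leaving out both, with 2 libraries left in each differentiated group.

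**Figure D3:**
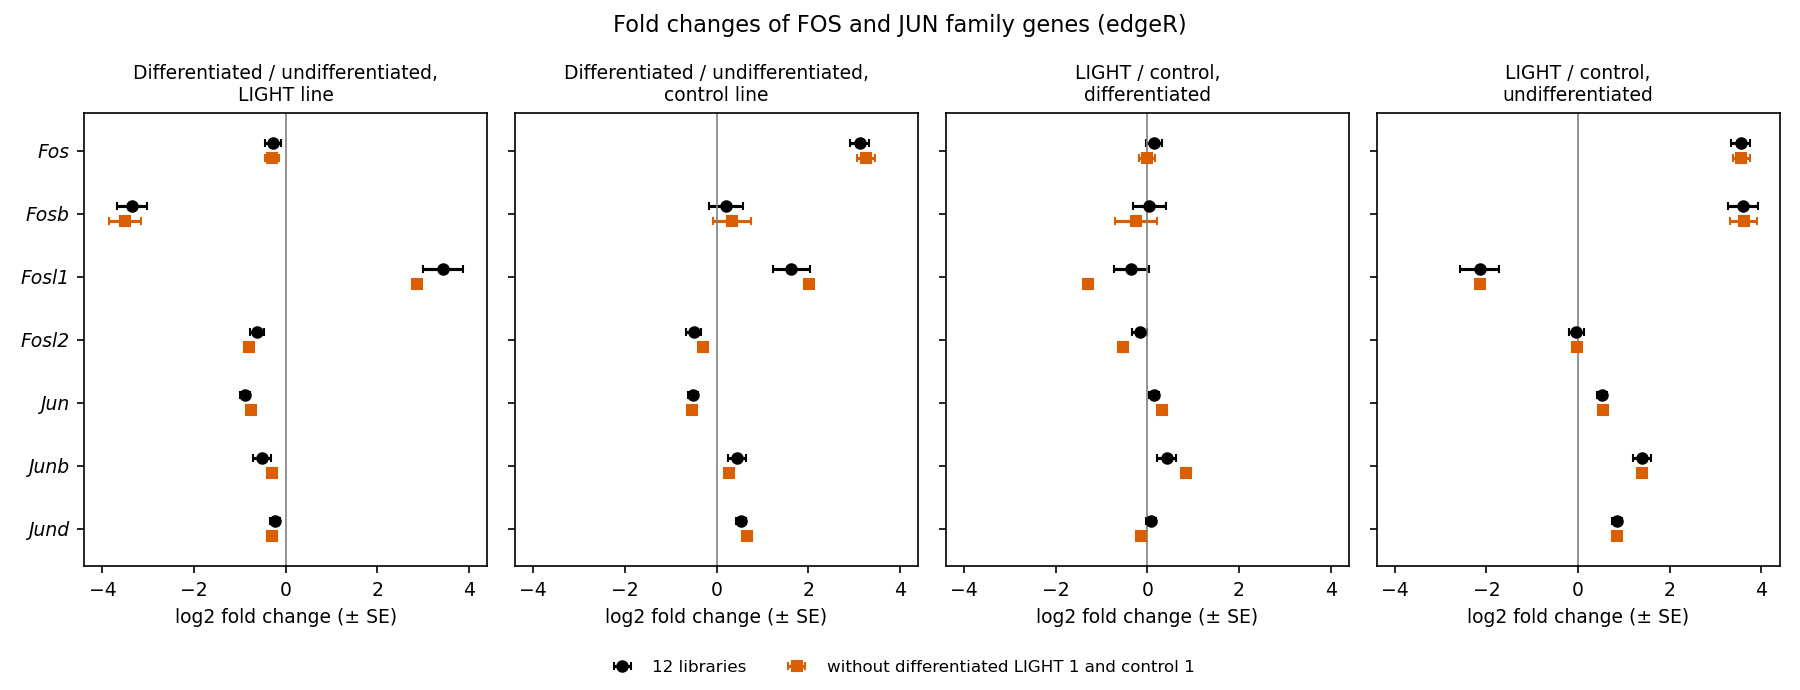
Log2 fold change (x axis, ± SE) of each gene (y axis) in 4 comparisons, with all 12 libraries (black circles) and without differentiated LIGHT 1 and control 1 (orange squares). Without the 2 libraries Fosl1 stands at -1.30 and Junb at 0.85 for LIGHT over control after differentiation, against -0.35 and 0.42 with all libraries; Fos and Fosb stand at 3.55 and 3.60 before differentiation.

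The leucine zipper proteins that can pair with FOS or JUN proteins were followed as a list of 20 genes, of which 15 were tested. In the LIGHT line 5 rose and 4 fell on differentiation, with a median log2 fold change of 0.12, and in the control line 8 rose and 4 fell, with a median of 0.19, against a median of 0 over all genes in both. That made 60% called in the LIGHT line, where 58.6% of all genes were called, and 80% in the control line, where 63.9% were. Leaving out the 2 libraries gave 7 higher and 5 lower in the LIGHT line and 8 higher and 4 lower in the control line, or 80% in each, against 64.1% and 70.7% of all genes. Maff, a small MAF protein, rose in the LIGHT line (2.26 ± 0.30, adjusted p = 2.96e-05), and Jdp2, which forms repressive dimers with JUN proteins, fell (-0.50 ± 0.07, adjusted p = 8.12e-05). Jdp2 fell in the control line as well (-0.55 ± 0.07, adjusted p = 3.11e-05), where Maf, a large MAF protein, rose (2.06 ± 0.28, adjusted p = 3.07e-05). For LIGHT against control after differentiation none was called as labelled, and 3 rose and 3 fell without the 2 libraries (40%, against 31% of all genes). Among these, Maf had 0.99 ± 0.09 (adjusted p = 7.49e-08), Atf4, a factor of the amino acid stress response, -0.45 ± 0.06 (adjusted p = 1.11e-05) and Maff -0.79 ± 0.11 (adjusted p = 2e-05).

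Upstream kinases and transcription factors, 19 of 21 tested, moved both ways. In the LIGHT line 5 rose and 4 fell (median 0.08), and in the control line 8 rose and 5 fell (median 0.12); leaving out the 2 libraries, the counts were 5 and 4, and 10 and 5. The share called was 47.4% in the LIGHT line and 68.4% in the control line, against 58.6% and 63.9% of all genes, and 47.4% and 78.9% without the 2 libraries, against 64.1% and 70.7%. Srf, which encodes serum response factor, fell on differentiation by 0.64 ± 0.10 in the LIGHT line (adjusted p = 0.000122) and by 0.91 ± 0.10 in the control line (adjusted p = 5.01e-06). Its partner Elk3 fell by 0.85 ± 0.08 (adjusted p = 9.21e-07) and 1.11 ± 0.08 (adjusted p = 6.08e-08) in the same lines. After differentiation, LIGHT against control, none was called as labelled, and 3 rose and 3 fell without the 2 libraries (31.6%, against 31% of all genes), among them Ets2 (0.48 ± 0.06, adjusted p = 1.32e-05) and Map2k1, the kinase MEK1 (-0.41 ± 0.06, adjusted p = 3.74e-05).

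Regulators of AP-1 protein and mRNA, all 15 tested, showed 3 higher and 2 lower on differentiation of the LIGHT line (median 0.03) and 4 higher and 3 lower in the control line (median 0.05). Leaving out the 2 libraries, 4 rose and 3 fell in the LIGHT line, and 7 rose and 4 fell in the control line. In the LIGHT line 33.3% were thus called as labelled and 46.7% without the 2 libraries, below the 58.6% and 64.1% of all genes. In the control line it was 46.7% and 73.3%, against 63.9% and 70.7% of all genes. Nr3c1, the glucocorticoid receptor, which restrains AP-1, rose by 0.50 ± 0.06 in the LIGHT line (adjusted p = 2.76e-05) and by 0.60 ± 0.06 in the control line (adjusted p = 4.25e-06). Zfp36l1, which destabilises AU-rich mRNAs, rose in the control line (1.30 ± 0.15, adjusted p = 8.52e-06). In the LIGHT line Zfp36l1 had -0.35 ± 0.15 (adjusted p = 0.0587, edgeR), and -0.17 ± 0.06 (adjusted p = 0.01) without the 2 libraries. Before differentiation it was already higher in LIGHT than in control cells, by 1.81 ± 0.15. It was also higher in LIGHT than in control cells after differentiation without the 2 libraries (0.49 ± 0.06, adjusted p = 7.41e-06), where 2 genes of this list rose and 4 fell (40%, against 31% of all genes).

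Other immediate early genes, 25 of 26 tested, were mixed. Before differentiation the log2 fold change of LIGHT over control was positive for 18 of 25, with a median of 0.39 against -0.01 over all genes. The 3 that changed most were Egr1 (2.81 ± 0.12), Egr2 (2.61 ± 0.36) and Ctgf (-2.08 ± 0.14), given as a description. Egr1, a zinc finger factor induced together with Fos in many cells, was at 74.14, 82.38 and 79.45 FPKM in undifferentiated LIGHT libraries, against 11.93, 11.03 and 11.25 FPKM in undifferentiated control libraries. Ctgf, a matricellular protein, went the other way, at 3.55, 3.50 and 3.17 FPKM against 15.39, 14.67 and 13.93 FPKM.

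On differentiation of the LIGHT line, 8 of these genes rose and 7 fell (median -0.08), and in the control line 14 rose and 6 fell (median 0.49). The counts were 10 and 9 in the LIGHT line and 16 and 7 in the control line when the 2 libraries were left out. The share called as labelled was 60% in the LIGHT line, near the 58.6% of all genes, and 80% in the control line, against 63.9%. Without the 2 libraries it was 76% and 92%, against 64.1% and 70.7% of all genes. In the LIGHT line Ctgf (-4.32 ± 0.21, adjusted p = 3.41e-09) and Ptgs2, which encodes cyclooxygenase-2 (-4.14 ± 0.25, adjusted p = 2.63e-08), fell and Per1, a clock gene, rose (1.56 ± 0.15, adjusted p = 1.78e-06). In the control line Egr1 (2.88 ± 0.12, adjusted p = 9.97e-10) and Ier2 (1.76 ± 0.09, adjusted p = 6.4e-09) rose and Ctgf fell (-6.40 ± 0.20, adjusted p = 6.5e-11). These 3 genes also differed between the undifferentiated lines, at 2.81, 2.04 and -2.08 for LIGHT over control in that order. Because the list was chosen with earlier results known, its p-values on differentiation may not be independent of that choice. Ctgf had 4 to 10 expected counts in each differentiated library. LIGHT against control after differentiation called none as labelled, and without the 2 libraries 8 rose and 8 fell (64%, against 31% of all genes). Cyr61 (1.00 ± 0.07, adjusted p = 1.6e-09), Egr3 (1.96 ± 0.17, adjusted p = 9.44e-08) and Ier5 (0.62 ± 0.08, adjusted p = 1.16e-05) were among those that rose. Atf3 (-1.05 ± 0.15) and Maff (-0.79 ± 0.11) were among those that fell.

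**Figure D4:**
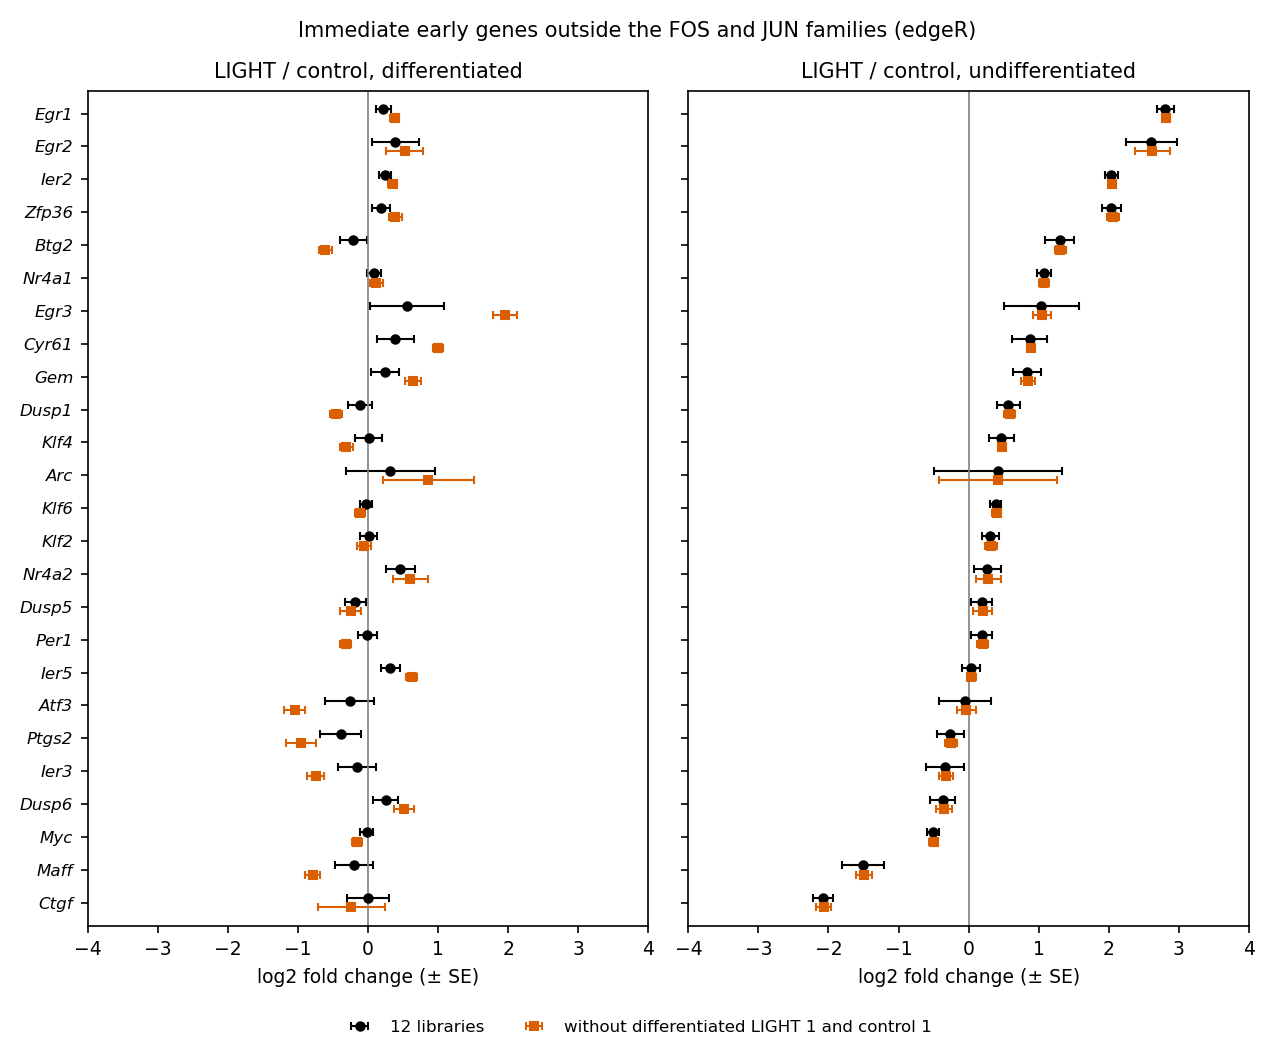
Log2 fold change of LIGHT over control (x axis, ± SE) for 25 immediate early genes outside the 2 families (y axis), in differentiated cells (left) and undifferentiated cells (right), with all 12 libraries (black) and without differentiated LIGHT 1 and control 1 (orange). With all libraries Egr1 stands at 0.22 after differentiation and at 2.81 before it, and Ctgf at -2.08 before; 18 of 25 genes lie above 0 before differentiation.

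Of 21 known AP-1 target genes, 19 were tested. In the LIGHT line 7 rose and 9 fell on differentiation (median -0.20), and in the control line 5 rose and 11 fell (median -1.55). Of 20 tested when the 2 libraries were left out, 8 rose and 9 fell in the LIGHT line, and 6 rose and 14 fell in the control line. As labelled, 84.2% were called in each line, where 58.6% (LIGHT) and 63.9% (control) of all genes were, about evenly higher and lower; without the 2 libraries it was 85% and 100%, against 64.1% and 70.7%. Mt1, a metallothionein, rose by 1.96 ± 0.09 in the LIGHT line (adjusted p = 2.65e-09) and by 2.31 ± 0.09 in the control line (adjusted p = 5.86e-10). Ccnd1, which encodes cyclin D1, fell by 1.69 ± 0.10 (adjusted p = 2.27e-08) and 2.46 ± 0.10 (adjusted p = 7.43e-10) in the same lines. Ezr, which encodes the membrane linker ezrin, fell by 1.29 ± 0.09 (adjusted p = 7.99e-08) and 1.55 ± 0.09 (adjusted p = 1.26e-08).

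For LIGHT against control after differentiation no target was called as labelled, and without the 2 libraries 7 rose and 7 fell of 20 tested (70%, against 31% of all genes; median 0.17). Mmp9, a matrix-degrading gelatinase, was at 1.40, 34.31 and 33.10 FPKM in differentiated LIGHT 1, 2 and 3, against 36.37, 1.51 and 1.94 FPKM in differentiated control 1, 2 and 3. Its log2 fold change without the 2 libraries was 4.20 ± 0.13 (adjusted p = 6.81e-14). Mmp2, another gelatinase, had a log2 fold change without the 2 libraries of 0.69 ± 0.06 (adjusted p = 1.65e-07). For both genes the first replicate of each differentiated group lay with the other group's remaining libraries.

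The genes whose log2 CPM followed each member most closely over the 12 libraries were ranked by Pearson's r among 9954 genes, as a description, since the points share 4 groups. Fos was closest to Ier2, Car11 and Hyi (each r = 0.98), and Fosb to Spata6 (0.97), Stk38l (0.95) and Sept5 (0.95). Fosl1 was closest to Maff, Lims2 and Timm23 (each 0.99), and Fosl2 to Tgif1, Sertad4 and Card19 (0.99, 0.99 and 0.99). Tceal8 and Armcx2 (each 0.98) were among the 3 closest to Jun. Junb was closest to Pik3r2, Gstm2 and Apobec1 (each 0.98) and Jund to Wbp1, Dnpep and Cdc42ep5 (each 0.95). Maff, which led the ranking for Fosl1, was at 24.28, 15.44 and 15.07 FPKM in differentiated LIGHT libraries, 11.67, 24.10 and 25.56 FPKM in differentiated control libraries, 3.76, 3.55 and 4.65 FPKM in undifferentiated LIGHT libraries and 10.90, 10.90 and 12.61 FPKM in undifferentiated control libraries. Its order of libraries thus also set the first replicate of each differentiated group apart.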

How the data were processed

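RNA-seq was done in triplicate on an Illumina HiSeq from TRIzol RNA, per the labels' protocols. The authors deposited 1 table per library holding, for each gene above 0, an expected count estimated from the reads, an FPKM value (scaled to length and library by the authors) and a length, per the file headers. The submitters' processing notes name the build mm8, and no source used here names the aligner, the counter or a strand setting. A gene missing from a table was set to 0. Expected counts were rounded and tested with edgeR 4.0.16 (R 4.3.3): TMM scaling, filterByExpr with a minimum count of 10, quasi-likelihood fit of 4 groups, Benjamini-Hochberg adjustment over all genes tested, and calls at an adjusted p under 0.05. The code was tested on simulated data. DESeq2 1.42.0 was an alternative. FPKM was used for levels and shares and was not tested. Depth was 16334079 to 19686675 expected counts per library; values at low counts are limited by counting error.

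The members and gene lists were chosen with earlier results of these data known. Genes named from a list are up to 3 called ones with the smallest p in each tested comparison, or fewer. Atf3 and Maff, as immediate early genes that fell in differentiated LIGHT against control cells, are named beyond this rule. Some genes that these rules select are not reported here. For the immediate early list before differentiation they are the 3 with the largest change, and likeness used genes at 5 CPM or more in the mean, with a prior count of 2 on the log scale. Named genes of the immediate early list after differentiation, and of the other lists there, come from the fit without the 2 libraries. Promoters come from RefSeq (GRCm38.p6), which covered 6 of 7 members. Other scalings, filters, tools, a replicate block and left-out libraries were tried.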

Additional observations from a re-analysis of the deposited data

Results flagged for a closer look

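For 3 members the mean change on differentiation had opposite signs in the 2 lines as labelled. Every differentiated LIGHT library lay below the undifferentiated LIGHT mean, and every differentiated control library above the undifferentiated control mean. The difference between the lines was not tested, and how many of all genes meet this rule was not counted. The undifferentiated means also enter the comparison from which the genes were chosen. On log2 CPM, Fos changed by -0.25 in LIGHT cells and 3.05 in control cells. Differentiated LIGHT libraries, at 10.77 to 11.23 FPKM, lay within the undifferentiated LIGHT range of 10.17 to 16.74 FPKM, so Fos showed no clear fall there. Junb changed by -0.57 in LIGHT cells and 0.43 in control cells. Jund changed by -0.24 in LIGHT cells and 0.53 in control cells. With all libraries, edgeR's quasi-likelihood test called neither Junb in control cells (adjusted p = 0.0643) nor Jund in LIGHT cells (adjusted p = 0.0821). Without the 2 libraries that went against their labels, edgeR's log2 fold changes in LIGHT and control cells kept these signs. They were -0.30 and 3.26 for Fos, -0.29 and 0.27 for Junb, and -0.31 and 0.67 for Jund.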

How the results depend on the processing

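Of the alternatives, leaving out both libraries that went against their labels moved the number of members called for LIGHT against control after differentiation to 4, against 0 as labelled, and on those libraries 3 members turned direction: Fos to -0.01, Fosb to -0.24 and Jund to -0.13. Without differentiated control 1 alone, Fosb was at -0.07 and Jund at -0.05, and without differentiated LIGHT 1 alone at -0.13 and -0.01; over all 12 libraries left out in turn, Fosb ranged from -0.13 to 0.20 and Jund from -0.05 to 0.13. The cause was not tested, and none of these values was called. The FOS share by summed expected counts, not divided by length, was 15.5% in undifferentiated LIGHT and 26.9% in undifferentiated control cells. Leaving out 1 library at a time, the FOS share ranged from 23.2 to 34.7% in differentiated LIGHT, 34.2 to 45.6% in differentiated control, 10.2 to 11.2% in undifferentiated LIGHT and 23.9 to 24.7% in undifferentiated control cells. The number of the 5 tested members called on differentiation ranged from 3 to 5 in LIGHT cells and 4 to 5 in control cells, and the number after differentiation, of 7, from 0 to 0. For Junb on differentiation of control cells, the call was made with no filter (adjusted p = 0.0407), with DESeq2 (0.0368) and with its 2 groups alone (0.0295). For Jund in LIGHT cells it was made with library totals (0.0142), with its 2 groups alone (0.0351) and without differentiated control 1 (0.0316) or LIGHT 1 (0.0402). Library totals in place of TMM moved the median of all genes by -0.11 on differentiation of control cells. Deviations of same-numbered libraries had correlations from -0.62 to 0.10 (18 pairs, 0 above 0.1). The lowest was that of differentiated control 1 with differentiated LIGHT 1, the 2 libraries that went against their labels. Across stages, same-numbered pairs had 0.10, 0.05 and 0.09 in the control line and 0.06, 0.07 and 0.04 in the LIGHT line. Different-numbered pairs within a line lay between -0.09 and 0.01. Whether the numbers link libraries was not tested. With the replicate block, 4 members were called on differentiation in control cells and 3 in LIGHT cells, where Junb had an adjusted p of 0.0599. For LIGHT against control after differentiation, 0 were called with this block. Leaving Jund out of the sum was planned only if it was the most abundant member, which it was not (93.3 FPKM against 111.9 for Junb over all libraries); the FOS share without it was 31.2 to 63.0% in differentiated LIGHT, 31.8 to 62.5% in differentiated control, 13.8 to 16.1% in undifferentiated LIGHT and 33.8 to 34.6% in undifferentiated control libraries. Fosb, at 22 to 35 counts in all libraries but undifferentiated LIGHT, is limited by counting error.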
